A study of Mus musculus with 30 samples.

Results

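Transcripts of 10 amino acid transporters of the plasma membrane were followed in murine erythroleukemia (MEL) cells, a mouse line that makes hemoglobin when it is cultured with DMSO. The members were matched by gene symbol from a list drawn up with earlier results of these data known, so counts over them are not free of selection. They include the heavy chain *Slc3a2* and light chains that pair with it, *Slc7a5*, *Slc7a6*, *Slc7a7* and *Slc7a11*. The others are the cationic carrier *Slc7a1*, the neutral amino acid carriers *Slc1a4*, *Slc1a5* and *Slc38a2*, and the glycine carrier *Slc6a9*. The members are 10 of the 54532 genes in the count table, and all 10 passed the filter on low counts in every comparison. WT cells of the MEL line DS19 and Abcb10-null cells were sequenced undifferentiated (day 0), at day 2 and at day 5 of culture with DMSO at 1.5%. Each of the 6 groups had 5 libraries. The Abcb10-null cells are 1 clone, made with lentiviral CRISPR/Cas9 against exon 1 of *Abcb10*, a transporter of the inner mitochondrial membrane. The genotype therefore cannot be told apart from other properties of that clone. The libraries of a group are labelled as biological replicates without naming separate cultures, so the p-values measure only the spread between these libraries.

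Amino acids cross the plasma membrane through carriers with overlapping substrates. *Slc3a2* encodes the CD98 heavy chain, a single-pass glycoprotein that brings its light chains to the surface by a disulfide bond. The light chains carry the transport: Slc7a5 exchanges large neutral amino acids for glutamine, Slc7a6 and Slc7a7 exchange cationic for neutral amino acids, and Slc7a11 (xCT) imports cystine in exchange for glutamate. Slc7a1 (CAT-1) takes up arginine, lysine and ornithine without a heavy chain. Slc1a5 (ASCT2) and Slc1a4 (ASCT1) exchange small neutral amino acids, Slc38a2 (SNAT2) takes up neutral amino acids with sodium, and Slc6a9 (GlyT1) takes up glycine, the amino acid from which heme synthesis starts in erythroid cells.

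Total counts ran from 9906783 to 20157768 per library (median 16492116.5), and the members had 66 counts or more in every library. Of 11 erythroid markers 8 exceeded 3 counts in all 30 libraries, while no myeloid, lymphoid or fibroblast marker exceeded 5.79 CPM (counts per 1000000, scaled by TMM). The erythroid markers include the globin genes *Hba-a1*, *Hba-a2*, *Hbb-bs* and *Hbb-bt*. Globin mRNA was depleted before sequencing, so the erythroid sums below do not give its level in the cells. *Abcb10* itself was lower in every Abcb10-null library than in every WT library of its day, with 177 to 237 CPM against 1152 to 1264 CPM at day 5. A few libraries stood apart for the members, a choice made after their values were seen. Over all genes with a mean of at least 1 CPM the order differed. There the root mean square log2 difference from the other replicates was 0.657 for WT day 5 replicate 5 and 0.654 for replicate 2. It was 0.659, 0.529 and 0.507 for Abcb10-null day 2 replicates 2, 4 and 5. WT day 5 replicate 5 had the highest value of its group for 9 of the 10 members (not *Slc38a2*). Its erythroid marker sum was 10427 CPM, where WT replicates 1 to 4 of that day had 19245 to 23513 CPM. Abcb10-null day 2 replicates 2 and 5 lay below replicates 1, 3 and 4 for all 10 members. Their erythroid sums were 1684 and 1603 CPM, where replicates 1, 3 and 4 had 2240.1 to 2498 CPM. These are whole-culture RNA measurements, in which fewer expressing cells and less RNA per cell cannot be told apart. The part of these libraries in the results was not tested beyond leaving them out.

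Most members were lower in Abcb10-null than in WT cells before DMSO and higher at day 5. At day 0, 6 of the 10 members were lower in Abcb10-null cells and none was called higher, where 16.2% of all genes tested were called lower (edgeR quasi-likelihood test, adjusted p under 0.05). At day 2, 5 members were higher and none lower, beside 14.9% of all genes called higher. At day 5, 9 members were higher and none lower, beside 19.8% of all genes called higher. The median log2 difference of the members went from -0.31 at day 0 to 0.60 at day 2 and 1.57 at day 5, while that of all genes tested was -0.0019, -0.0022 and -0.016. Every library of one genotype lay beyond every library of the other for 6 members at day 0 (9.15% of all genes, in the lower direction), for *Slc7a11* and *Slc38a2* at day 2 (8.01% of all genes, higher) and for 7 members at day 5 (13.5% of all genes, higher). For a single gene such a separation has an exact two-sided permutation p of 0.00794, the smallest that 5 against 5 libraries allow.

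In one fit of all 30 libraries, where the spread of the later days enters, 1 of the 6 day 0 differences, that of *Slc7a1*, was still called (edgeR adjusted p = 0.0209, against 0.0614 to 0.728 for the other five), and 10.8% of all genes were called in either direction. Without both low libraries of Abcb10-null day 2, an alternative added after seeing the data, 7 members were called higher at day 2, where 47.4% of all genes were called in either direction, and the median of the members was 0.95.

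**Figure D1:**
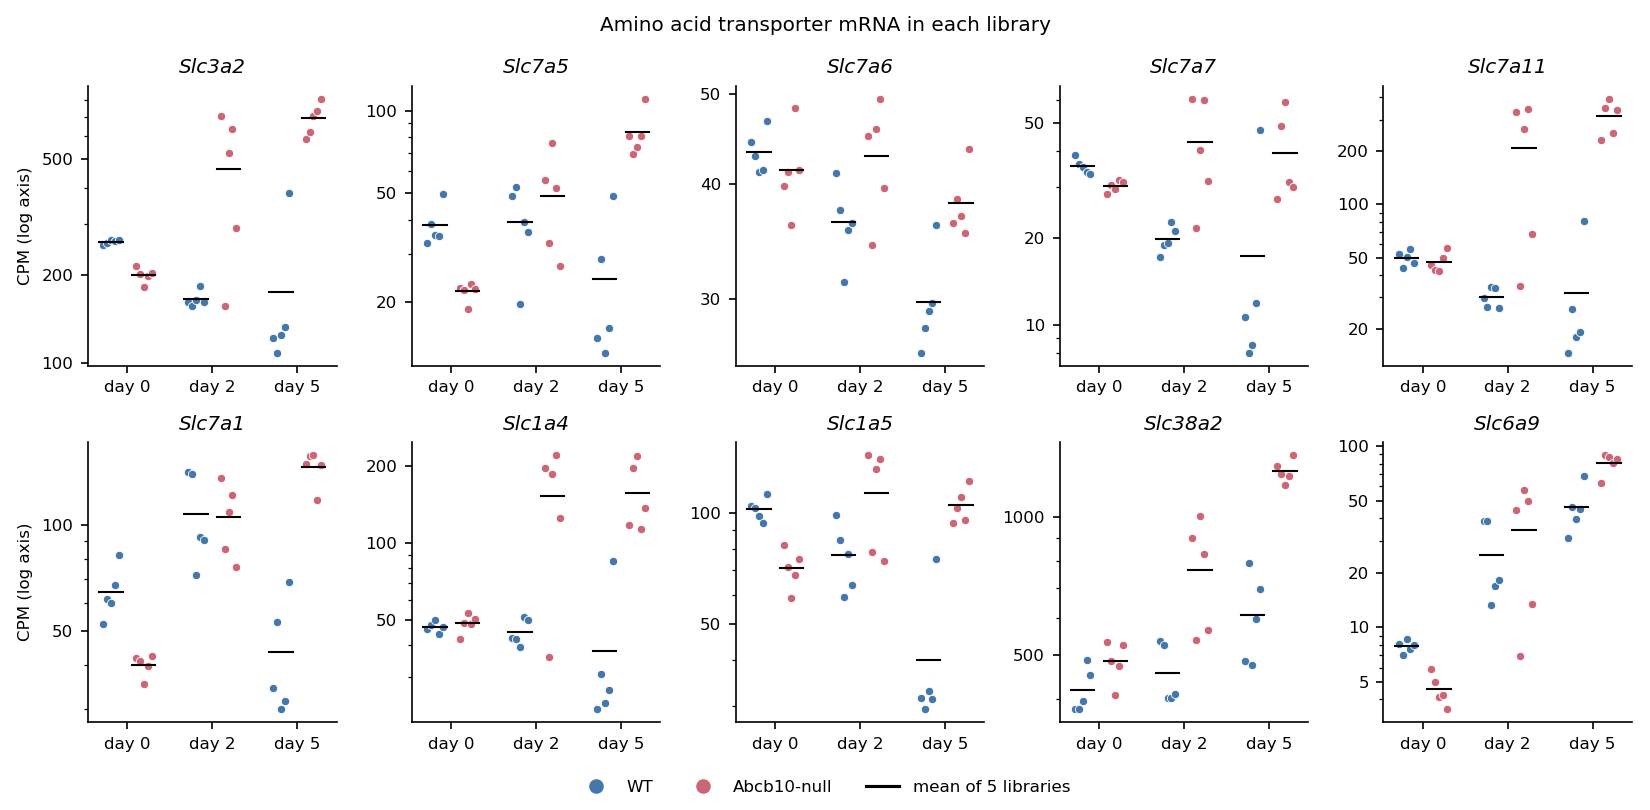
CPM of each transporter (log axes that differ between panels) in each of the 30 libraries by day, with WT in blue, Abcb10-null in red and a black line at the mean of 5 libraries. At day 5 the red points lie above all blue points for 7 of the 10 genes, and single libraries of WT day 5 and Abcb10-null day 2 lie far from their groups.

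RefSeq promoter windows, 250 bases before to 50 after an annotated transcript start, were matched for 8 of the 10 members (16 windows, build GRCm38.p6), with no entry for *Slc7a5* and *Slc1a5*. The letters TGATGNAA, those of the C/EBP-ATF response element, were searched on both strands, and 3.97% of all 32851 windows held them, 0.895% in the form TGATGCAA, which is one of the forms of TGATGNAA. Among the members they occurred in windows of *Slc7a11*, *Slc1a4* and *Slc7a7*. Those windows are shown in the direction of transcription, with the matches in capitals, beside that of *Slc3a2*, the heavy chain, whose window held no match. The only *Slc3a2* window lies inside the gene, whose annotated 5′ end is at 8723369, so the sequence at that end was not searched. The windows lie at chr3:50443564-50443863, minus strand (*Slc7a11*), chr11:20332664-20332963, minus strand (*Slc1a4*), chr14:54417895-54418194, minus strand (the *Slc7a7* window farthest upstream) and chr19:8713848-8714147, minus strand (*Slc3a2*).
Slc7a11: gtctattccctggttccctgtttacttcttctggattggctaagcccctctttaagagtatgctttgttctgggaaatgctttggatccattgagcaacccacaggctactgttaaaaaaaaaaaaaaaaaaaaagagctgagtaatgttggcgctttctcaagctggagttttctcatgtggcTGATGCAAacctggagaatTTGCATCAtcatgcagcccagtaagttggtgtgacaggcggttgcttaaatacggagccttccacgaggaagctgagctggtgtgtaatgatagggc
Slc1a4: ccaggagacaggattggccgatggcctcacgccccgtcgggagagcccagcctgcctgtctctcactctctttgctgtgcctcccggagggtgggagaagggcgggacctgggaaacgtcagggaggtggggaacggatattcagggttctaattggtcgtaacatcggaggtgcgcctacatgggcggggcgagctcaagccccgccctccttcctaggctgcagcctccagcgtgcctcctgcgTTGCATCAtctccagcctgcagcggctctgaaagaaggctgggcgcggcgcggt
Slc7a7: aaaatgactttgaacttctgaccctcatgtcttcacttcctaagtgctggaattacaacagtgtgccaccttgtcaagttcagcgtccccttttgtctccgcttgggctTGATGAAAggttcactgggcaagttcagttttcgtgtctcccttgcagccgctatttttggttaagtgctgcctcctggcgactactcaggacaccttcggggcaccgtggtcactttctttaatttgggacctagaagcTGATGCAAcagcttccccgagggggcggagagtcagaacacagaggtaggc
Slc3a2: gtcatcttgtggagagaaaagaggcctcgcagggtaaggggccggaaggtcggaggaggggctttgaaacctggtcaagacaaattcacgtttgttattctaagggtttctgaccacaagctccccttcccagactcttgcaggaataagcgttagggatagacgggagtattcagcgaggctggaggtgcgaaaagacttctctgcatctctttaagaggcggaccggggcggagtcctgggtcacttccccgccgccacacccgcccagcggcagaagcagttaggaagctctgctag

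The *Slc7a11* window held TGATGCAA on its own strand at bases 185 to 192 and on the other strand at bases 204 to 211, counted from 1 at the 5′ end. In *Slc1a4* the same letters lay on the other strand at bases 247 to 254, across the annotated start. The *Slc7a7* window held a first TGATGNAA at bases 110 to 117 and TGATGCAA at bases 250 to 257, the latter also inside the next *Slc7a7* window, which overlaps it. The windows of *Slc3a2*, *Slc7a1*, *Slc7a6*, *Slc38a2* and *Slc6a9* held none. All *Slc6a9* windows lie inside the gene, the first of them from 117835008. The annotated 5′ end of *Slc6a9* is at 117834506, so the sequence at that end was not searched either. A match describes letters in a window of this length and no binding was measured.

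*Slc3a2* (ENSMUSG00000010095) lies on the minus strand of GRCm38 chromosome 19, 8706882-8723369. *Slc3a2*, the heavy chain shared by the 4 light chains, was lower in Abcb10-null cells before DMSO and 3.98-fold higher than in WT cells at day 5. At day 0 the WT libraries held 253, 257, 264, 262 and 265 CPM. The Abcb10-null libraries held 214, 202, 182, 199 and 204 CPM. The groups were apart, the Abcb10-null level 1.31-fold lower (log2 difference -0.39, SE 0.06, edgeR adjusted p = 3.62e-05). The WT libraries of day 2 held 162, 157, 163, 184 and 162 CPM and the Abcb10-null libraries 707, 156, 527, 637 and 291 CPM. Of the latter, replicate 2 lay below every WT library and the other four above all of them (log2 difference 1.43, SE 0.31, edgeR adjusted p = 0.00625). At day 5 the WT libraries held 121, 108, 124, 133 and 385 CPM against 589.5, 622, 708, 734 and 809 CPM in Abcb10-null cells. The groups were again apart although WT replicate 5 stood far above its group (log2 difference 1.99, SE 0.31, edgeR adjusted p = 0.000349). Without that library the log2 difference was 2.49 (edgeR adjusted p = 7.1e-08). Within WT cells *Slc3a2* fell by day 2 (log2 change -0.65, SE 0.07, edgeR adjusted p = 4.61e-06). Its day 5 value lay below day 0 in 4 of 5 libraries without passing the test (log2 change -0.58, 95% interval -1.22 to 0.05, edgeR adjusted p = 0.0885). Without WT day 5 replicate 5 the WT log2 change from day 0 to day 5 was -1.10 (edgeR adjusted p = 4.05e-08). Within Abcb10-null cells it rose by day 2 (log2 change 1.23, SE 0.30, edgeR adjusted p = 0.00499) and stood higher in every day 5 library than in any day 0 library (log2 change 1.80, SE 0.09, edgeR adjusted p = 1.29e-10).

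*Slc7a11* (ENSMUSG00000027737) lies on the minus strand of GRCm38 chromosome 3, 49892526-50443614. *Slc7a11*, the cystine carrier, had the largest differences of the 10 members at days 2 and 5. The genotypes overlapped at day 0. WT libraries held 52.8, 44.02, 50.3, 56.03 and 46.8 CPM, and Abcb10-null libraries held 45.6, 42.8, 42.4, 49.96 and 56.5 CPM (log2 difference -0.08, 95% interval -0.26 to 0.10, edgeR adjusted p = 0.479). By day 2 WT cells had fallen to 29.8, 26.3, 34.3, 33.7 and 26.2 CPM, every library below every day 0 library (log2 change -0.73, SE 0.11, edgeR adjusted p = 6.13e-05). That call was lost in the fit of all 30 libraries (edgeR adjusted p = 0.128). The Abcb10-null libraries of day 2 held 331, 34.8, 264, 345 and 67.8 CPM. They fell into 3 high and 2 low libraries, the lowest just above the highest WT library, and the difference was 6.67-fold (log2 difference 2.74, SE 0.50, edgeR adjusted p = 0.00361). Without both low libraries the log2 difference was 3.33 (edgeR adjusted p = 1.48e-07). At day 5 WT libraries held 14.6, 25.7, 17.8, 19.2 and 80.5 CPM. The Abcb10-null libraries held 229.9, 348, 394, 253 and 341 CPM. No library of one genotype reached the other, and the difference was 9.91-fold (log2 difference 3.31, SE 0.42, edgeR adjusted p = 8.88e-05). Without WT replicate 5 the log2 difference was 3.99 (edgeR adjusted p = 1.6e-07). From day 0 to day 5 *Slc7a11* rose 6.64-fold in Abcb10-null cells (log2 change 2.73, SE 0.14, edgeR adjusted p = 1.51e-10), while the WT change was not called (log2 change -0.66, 95% interval -1.49 to 0.16, edgeR adjusted p = 0.132). It was called without WT day 5 replicate 5 (-1.37, edgeR adjusted p = 2.83e-06) and with all genes of at least 1 count (-0.69, edgeR adjusted p = 1.14e-05).

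*Slc7a5* (ENSMUSG00000040010) lies on the minus strand of GRCm38 chromosome 8, 121881150-121907694. It encodes the main carrier of large neutral amino acids. WT libraries held 32.8, 38.6, 35.1, 34.8 and 49.7 CPM at day 0. The Abcb10-null libraries, all of them lower, held 22.5, 22.1, 18.8, 23.3 and 22.3 CPM (log2 difference -0.81, SE 0.10, edgeR adjusted p = 7.44e-06). The groups overlapped widely at day 2. WT libraries then held 48.8, 52.6, 19.6, 39.3 and 35.9 CPM and Abcb10-null libraries 55.9, 32.9, 76.2, 52.2 and 26.9 CPM (log2 difference 0.26, 95% interval -0.37 to 0.89, edgeR adjusted p = 0.527). WT libraries of day 5 held 14.7, 28.6, 12.99, 16.1 and 48.7 CPM. The Abcb10-null libraries held 81.3, 69.7, 74.03, 81.1 and 111 CPM, apart by 3.43-fold (log2 difference 1.78, SE 0.31, edgeR adjusted p = 0.000857). Within Abcb10-null cells *Slc7a5* rose 2.28-fold by day 2 (log2 change 1.19, SE 0.22, edgeR adjusted p = 0.000958) and 3.84-fold by day 5 (log2 change 1.94, SE 0.12, edgeR adjusted p = 9.23e-10). Every library of both days was above all day 0 libraries. In WT cells it did not pass the test at day 2 (log2 change 0.04, 95% interval -0.42 to 0.49, edgeR adjusted p = 0.893) or day 5 (log2 change -0.66, 95% interval -1.32 to 0.01, edgeR adjusted p = 0.0725). By day 5, 4 of 5 libraries lay below day 0, and the log2 change without replicate 5 was -1.08 (edgeR adjusted p = 0.000553).

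*Slc7a6* (ENSMUSG00000031904) lies on the plus strand of GRCm38 chromosome 8, 106168857-106198706. At day 0 it held 41.2 to 46.8 CPM in WT cells and 36.1 to 48.4 CPM in the Abcb10-null clone, where it was still at 35.4 to 43.6 CPM at day 5. In WT cells it declined to 31.3 to 41.1 CPM at day 2 and 26.2 to 36.1 CPM at day 5, each time below every day 0 library. The decline was called at day 2 (log2 change -0.25, SE 0.09, edgeR adjusted p = 0.0203) and at day 5 (log2 change -0.54, SE 0.10, edgeR adjusted p = 0.000398). The day 2 call was lost without WT day 2 replicate 2 or 3 (edgeR adjusted p = 0.0649 and 0.111). Its difference between genotypes at day 5 was the smallest that was called (log2 difference 0.35, SE 0.12, edgeR adjusted p = 0.0318) and passed in 3 of 10 refits with 1 library removed. With all genes of at least 1 count it did not pass (edgeR adjusted p = 0.289).

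*Slc7a7* (ENSMUSG00000000958) lies on the minus strand of GRCm38 chromosome 14, 54369442-54417780. It shares 7% of its exon bases with *Oxa1l* on the opposite strand. WT libraries held 38.9, 35.99, 35.3, 33.8 and 33.2 CPM at day 0, 17.1, 18.9, 19.2, 22.7 and 21.2 CPM at day 2, and 10.6, 7.99, 8.53, 11.9 and 47.2 CPM at day 5. The WT level thus fell by day 2 in every library (log2 change -0.84, SE 0.10, edgeR adjusted p = 1.4e-05). It was lower again in 4 of 5 libraries of day 5 (log2 change -1.04, SE 0.41, edgeR adjusted p = 0.0371), while replicate 5 exceeded all day 0 libraries. The day 5 call was lost without any one of WT day 0 replicates 1, 2 and 3 or WT day 5 replicates 1, 2, 3 and 4 (edgeR adjusted p = 0.0509 to 0.0853). Without replicate 5 of day 5 the log2 change was -1.86 (edgeR adjusted p = 4.43e-08). Abcb10-null libraries held 28.4, 30.5, 29.6, 31.8 and 31.3 CPM at day 0, 60.7, 21.6, 40.5, 59.98 and 31.4 CPM at day 2 and 27.3, 48.8, 59.2, 31.1 and 30.01 CPM at day 5. The later days spread widely around the day 0 level, and neither the change to day 2 (log2 change 0.52, 95% interval 0.04 to 1.00, edgeR adjusted p = 0.0762) nor that to day 5 (log2 change 0.39, 95% interval 0.01 to 0.77, edgeR adjusted p = 0.0671) passed the test. The genotype difference at day 2 (log2 difference 1.06, SE 0.24, edgeR adjusted p = 0.00771) was called. That at day 5 (log2 difference 1.19, 95% interval 0.23 to 2.15, edgeR adjusted p = 0.0507) lay at the threshold. It was called without WT replicate 5 (1.99, edgeR adjusted p = 7.01e-05) and in 4 of 6 other settings, with all genes of at least 1 count, with at least 10 counts in every library, in the fit of all 30 libraries and with the replicate block, but not with DESeq2 or its size factors. At day 0 *Slc7a7* was lower in Abcb10-null cells (log2 difference -0.23, SE 0.07, edgeR adjusted p = 0.0156), a call lost with all genes of at least 1 count (edgeR adjusted p = 0.0661).

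**Figure D2:**
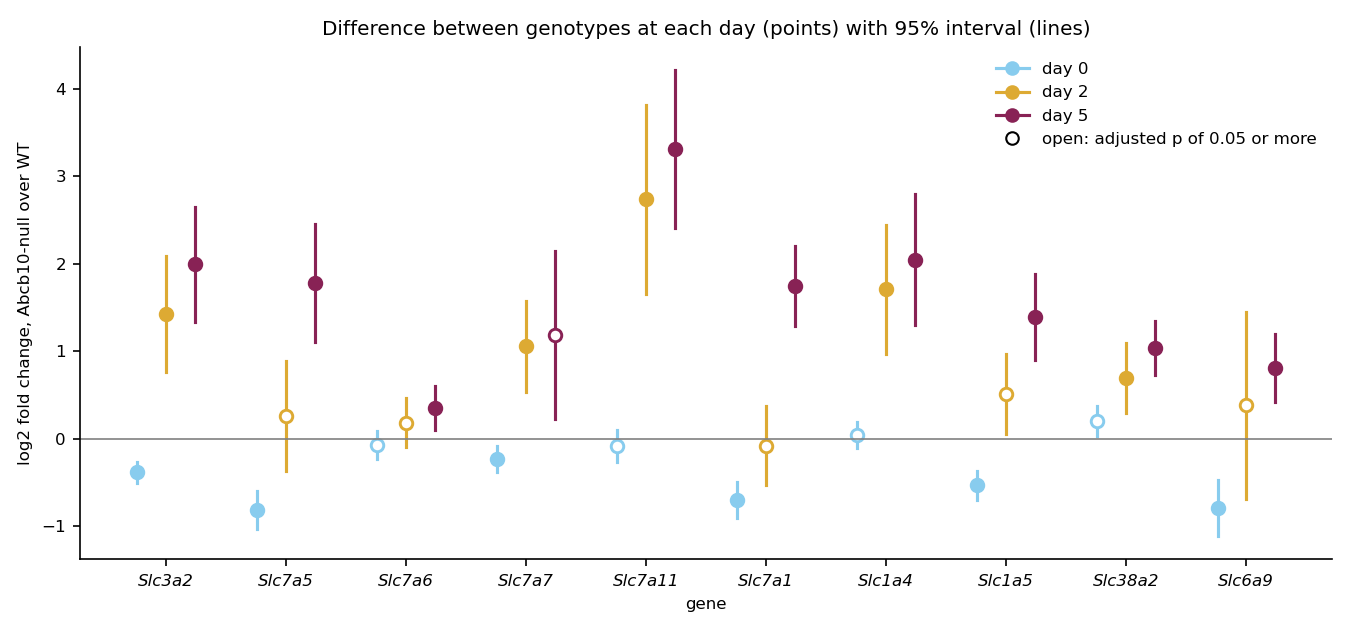
Log2 fold change of Abcb10-null over WT for each transporter at days 0, 2 and 5, from edgeR with 5 libraries a group, with lines for the 95% interval and open circles where the adjusted p was 0.05 or more. At day 0 the called values lie below 0, and at day 5 all 10 lie above 0, from 0.35 for *Slc7a6* to 3.31 for *Slc7a11*.

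Levels of different genes were compared per kilobase of exon, counting all annotated exons. Which of these exons the cells used was not measured, so such comparisons depend on the annotation. On this scale *Slc3a2* exceeded the sum of the 4 light chains among the members in every library, and no other light chain entered that sum. The ratio of *Slc3a2* to that sum (mean ± SD of 5 libraries) was 2.17 ± 0.111 for WT and 2.07 ± 0.146 for Abcb10-null cells at day 0. It was 1.79 ± 0.312 and 2.51 ± 0.473 at day 2, and 2.35 ± 0.383 and 3.03 ± 0.401 at day 5. By library it was 2.46, 1.69, 2.57, 2.38 and 2.66 for WT at day 5. For the Abcb10-null clone it was 3.06, 2.63, 2.70, 3.63 and 3.14, a range that WT replicate 5 enters. *Slc7a11* held 10.6% ± 1.35 of the light chain sum for WT and 12.4% ± 1.09 for Abcb10-null cells at day 0, and 9.97% ± 2.51 and 34.2% ± 3.44 at day 5. By library its day 5 share was 7.50, 10.2, 9.32, 8.72 and 14.1% for WT and 30.2, 37.4, 38.1, 31.8 and 33.6% for Abcb10-null cells, with no overlap. The mean share of *Slc7a6* was 27.8% ± 0.371 for WT and 32.9% ± 1.43 for Abcb10-null cells at day 0, and 36.3% ± 10.6 and 12.9% ± 1.35 at day 5. The *Slc7a11* share of the Abcb10-null libraries of day 2 was 35.5, 9.84, 30.7, 36.6 and 16.1%, low in replicates 2 and 5. These ratios and shares of mRNA are descriptions without a test, and protein was not measured here.

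**Figure D3:**
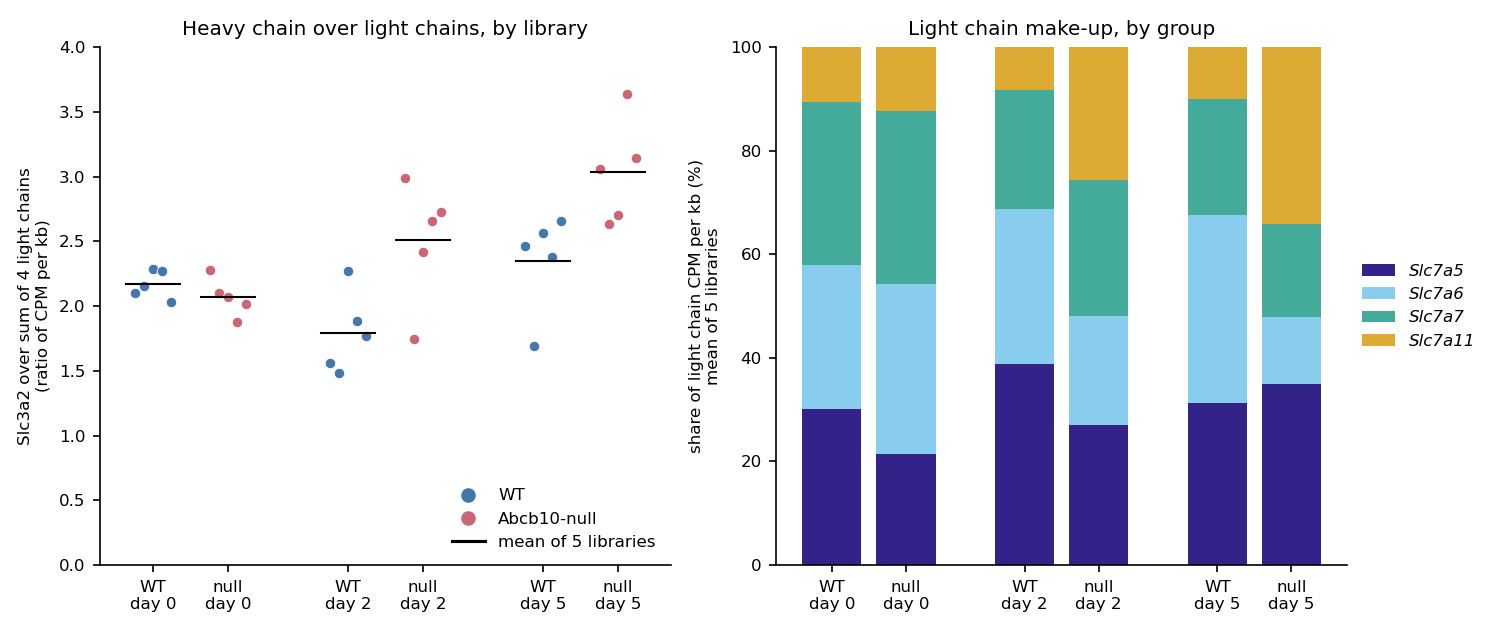
Left, ratio of *Slc3a2* to the sum of the 4 light chains among the members in CPM per kb, 1 point a library and a black line at the mean of 5. Right, mean share of each light chain in that sum (%) by group, in which *Slc7a11* takes 34.2% in Abcb10-null cells at day 5 against 9.97% in WT cells.

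*Slc7a1* (ENSMUSG00000041313) lies on the minus strand of GRCm38 chromosome 5, 148327410-148399904. *Slc7a1*, the arginine and lysine carrier, rose by day 2 in both genotypes and was higher in every Abcb10-null than in any WT library at day 5. At day 0 WT libraries held 52.1, 61.4, 59.98, 67.6 and 82.03 CPM. Abcb10-null libraries held 41.7, 41.02, 35.2, 39.7 and 42.3 CPM, without overlap (log2 difference -0.70, SE 0.10, edgeR adjusted p = 2.32e-05). WT libraries of day 2 held 141, 139.7, 72.3, 92.5 and 90.6 CPM. Abcb10-null libraries held 136, 85.4, 109, 121 and 76.1 CPM, and the groups overlapped (log2 difference -0.08, 95% interval -0.53 to 0.37, edgeR adjusted p = 0.796). WT replicates 1 and 2 were the highest. Leaving out either, or Abcb10-null replicate 5, turned the small log2 difference to 0.04, 0.04 or 0.02, none of them called. At day 5 WT libraries held 34.3, 52.9, 29.9, 31.6 and 68.96 CPM. The Abcb10-null libraries held 149, 158, 158, 118 and 148 CPM, apart by 3.34-fold (log2 difference 1.74, SE 0.21, edgeR adjusted p = 6.78e-05). In WT cells *Slc7a1* rose from day 0 to day 2 (log2 change 0.73, SE 0.18, edgeR adjusted p = 0.00326) and fell from day 2 to day 5, every library below all of day 2 (log2 change -1.30, SE 0.25, edgeR adjusted p = 0.00181). In Abcb10-null cells it rose from day 0 to day 2 (log2 change 1.43, SE 0.14, edgeR adjusted p = 8.16e-06) and again from day 2 to day 5 (log2 change 0.47, SE 0.15, edgeR adjusted p = 0.0312). The latter call passed in 3 of 10 refits with 1 library removed. The WT level at day 5 was below that of day 0 (log2 change -0.57, SE 0.22, edgeR adjusted p = 0.0309), a call lost without WT day 0 replicate 5 or WT day 5 replicate 1, 3 or 4 (edgeR adjusted p = 0.0653 to 0.0805).

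*Slc1a4* (ENSMUSG00000020142) lies on the minus strand of GRCm38 chromosome 11, 20302180-20332713. It encodes an exchanger of small neutral amino acids such as serine and alanine. *Slc1a4* did not differ beyond its spread at day 0, with 46.1, 47.8, 50.1, 44.1 and 46.8 CPM in WT libraries and 42.2, 48.7, 53.1, 48.1 and 50.2 CPM in Abcb10-null libraries (log2 difference 0.04, 95% interval -0.11 to 0.19, edgeR adjusted p = 0.707). On day 2 WT libraries held 42.5, 42.1, 39.4, 51.3 and 49.97 CPM and Abcb10-null libraries 197, 36.02, 186, 220.1 and 125 CPM. Abcb10-null replicate 2 was below every WT library and the other four were above all of them (3.27-fold, log2 difference 1.71, SE 0.34, edgeR adjusted p = 0.00489). WT libraries of day 5 held 22.4, 30.7, 23.7, 26.8 and 84.99 CPM. Abcb10-null libraries held 118, 196, 218, 113 and 137 CPM, without overlap even with WT replicate 5 included (4.14-fold, log2 difference 2.05, SE 0.35, edgeR adjusted p = 0.000671). Over time *Slc1a4* rose in Abcb10-null cells from day 0 to day 5 (log2 change 1.70, SE 0.16, edgeR adjusted p = 1.62e-07). The WT change was not called (log2 change -0.32, 95% interval -0.98 to 0.35, edgeR adjusted p = 0.367). Of its day 5 libraries 4 of 5 lay below all of day 0, and the log2 change without replicate 5 was -0.86 (edgeR adjusted p = 9.2e-06).

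*Slc1a5* (ENSMUSG00000001918) lies on the plus strand of GRCm38 chromosome 7, 16781340-16798274. Its product also carries glutamine. WT libraries held 105, 103, 98.1, 93.9 and 113 CPM at day 0. All Abcb10-null libraries were lower, at 81.8, 71.4, 58.9, 67.96 and 74.99 CPM (log2 difference -0.54, SE 0.08, edgeR adjusted p = 5.03e-05). By day 2 WT libraries held 99.1, 84.3, 59.1, 77.6 and 63.7 CPM and Abcb10-null libraries 144, 78.6, 132, 139.98 and 74.3 CPM. The 3 high Abcb10-null libraries were above all WT libraries and the 2 low ones inside the WT range (log2 difference 0.51, 95% interval 0.06 to 0.96, edgeR adjusted p = 0.078). Without the low ones the log2 difference was 0.80 (edgeR adjusted p = 0.00214). It was also called in the fit of all 30 libraries (0.57, edgeR adjusted p = 0.0252) and with all genes of at least 1 count (0.54, edgeR adjusted p = 0.00654). At day 5 WT libraries held 31.6, 29.4, 32.9, 31.2 and 74.9 CPM. The Abcb10-null libraries held 93.96, 103, 110.3, 95.8 and 122 CPM, apart by 2.62-fold (log2 difference 1.39, SE 0.23, edgeR adjusted p = 0.000563). *Slc1a5* declined in WT cells in all 5 libraries (2.56-fold lower at day 5 than at day 0, log2 change -1.36, SE 0.23, edgeR adjusted p = 0.00012). It rose in Abcb10-null cells (1.49-fold, log2 change 0.57, SE 0.10, edgeR adjusted p = 0.000102).

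*Slc38a2* (ENSMUSG00000022462) lies on the minus strand of GRCm38 chromosome 15, 96687392-96699730. *Slc38a2*, the sodium-coupled neutral amino acid carrier known to be induced when cells lack amino acids, rose in both genotypes. At day 0 WT libraries held 381, 380.2, 396, 487 and 452 CPM. Abcb10-null libraries held 532, 485, 408, 471 and 524 CPM, overlapping and not called (log2 difference 0.20, 95% interval 0.03 to 0.37, edgeR adjusted p = 0.0633). With all genes of at least 1 count it was called (0.20, edgeR adjusted p = 0.0168), as it was without WT replicate 4 or Abcb10-null replicate 3 of day 0 (0.24, edgeR adjusted p = 0.0194, and 0.26, edgeR adjusted p = 0.0136). On day 2 WT libraries held 537, 524, 401, 402 and 411 CPM and Abcb10-null libraries 897, 538, 1005, 827 and 566 CPM. The lowest Abcb10-null library was just above the highest WT library (1.62-fold, log2 difference 0.70, SE 0.19, edgeR adjusted p = 0.0143). WT libraries of day 5 held 483, 793, 476, 598 and 694 CPM. Abcb10-null libraries held 1286, 1240.3, 1171, 1228 and 1363 CPM, without overlap (2.05-fold, log2 difference 1.04, SE 0.15, edgeR adjusted p = 0.000181). The rise from day 0 to day 5 was 1.45-fold in WT (log2 change 0.54, SE 0.15, edgeR adjusted p = 0.00487) and 2.61-fold in Abcb10-null cells (log2 change 1.38, SE 0.09, edgeR adjusted p = 1.03e-09).

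*Slc6a9* (ENSMUSG00000028542) lies on the plus strand of GRCm38 chromosome 4, 117834506-117875198. *Slc6a9*, the glycine carrier, rose most of all members over differentiation, in both genotypes. Antisense to it, *Ccdc24* overlaps 27.8% of its exon bases. At day 0 WT libraries held 8.05, 7.08, 8.60, 7.62 and 8.03 CPM. All Abcb10-null libraries were lower, at 5.93, 5.01, 4.12, 4.23 and 3.53 CPM (log2 difference -0.79, SE 0.15, edgeR adjusted p = 0.000539). On day 2 WT libraries held 38.8, 38.7, 13.3, 16.8 and 18.3 CPM and Abcb10-null libraries 44.5, 6.94, 57.02, 49.9 and 13.4 CPM. Both groups split, with WT replicates 1 and 2 and Abcb10-null replicates 1, 3 and 4 high, and the genotypes overlapped (log2 difference 0.38, 95% interval -0.69 to 1.45, edgeR adjusted p = 0.586). Without both low Abcb10-null libraries the log2 difference was 0.94 (edgeR adjusted p = 0.0357). At day 5 WT libraries held 31.05, 46.3, 39.7, 44.8 and 68.4 CPM and Abcb10-null libraries 62.7, 89.4, 86.9, 80.5 and 85 CPM. Abcb10-null replicate 1 lay below WT replicate 5 and the other four above all WT libraries (1.75-fold, log2 difference 0.81, SE 0.18, edgeR adjusted p = 0.00364). The call was lost in the fit of all 30 libraries (edgeR adjusted p = 0.0597). From day 0 to day 5 it rose 5.83-fold in WT (log2 change 2.54, SE 0.18, edgeR adjusted p = 5.94e-08) and 17.7-fold in Abcb10-null cells (log2 change 4.15, SE 0.15, edgeR adjusted p = 2.72e-12), with no overlap between the days in either genotype.

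Counted over the members, WT cells had 2 higher and 5 lower at day 2 than at day 0, beside 31.5% and 30.7% of all genes called higher and lower. At day 5 against day 0 they had 2 higher and 4 lower, beside 36.5% and 34.7% of all genes. At day 5 against day 2 they had 2 higher and 2 lower, beside 17% and 16.4%. The 2 that rose by day 5 were *Slc38a2* and *Slc6a9*. In Abcb10-null cells 8 members were higher and none lower at day 2 than at day 0 (23.1% of all genes called higher). Likewise 8 were higher at day 5 than at day 0 (33.9%), and for all 8 the days did not overlap (26.6% of all genes in this direction). From day 2 to day 5, 4 members rose further (14.4% of all genes called higher), *Slc7a1*, *Slc7a5*, *Slc38a2* and *Slc6a9*. This last count was 1 without Abcb10-null day 5 replicate 5 (24.9% of all genes called in either direction). It was 2 without Abcb10-null day 2 replicate 5 (30.1%) or Abcb10-null day 5 replicate 2 (25.5%) or 3 (27.5%). Without both low libraries of Abcb10-null day 2, *Slc7a5*, *Slc38a2* and *Slc6a9* were higher at day 5 than at day 2, *Slc7a6* (-0.29, edgeR adjusted p = 0.0472) and *Slc1a5* (-0.40, edgeR adjusted p = 0.00902) were lower and *Slc7a1* was not called (0.26, edgeR adjusted p = 0.0897), beside 40% of all genes. The median of the members was then 0.077 against 0.53 with all libraries. *Slc6a9* did not pass in DESeq2 (adjusted p = 0.0722). Without WT day 5 replicate 5 all 10 members were called between days 5 and 0 in WT cells, 8 of them lower, beside 73.7% of all genes called in either direction, and 8 were called between days 5 and 2, all lower, beside 38%. With all genes of at least 1 count all 10 were also called between days 5 and 0, beside 31.7%. The count between days 5 and 2 was 2 without WT day 2 replicate 3, 4 or 5 or WT day 5 replicate 4, beside 25.8% to 31.8% of all genes. Comparisons that share a group, such as the changes of 1 genotype from day 0, share its libraries.

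**Figure D4:**
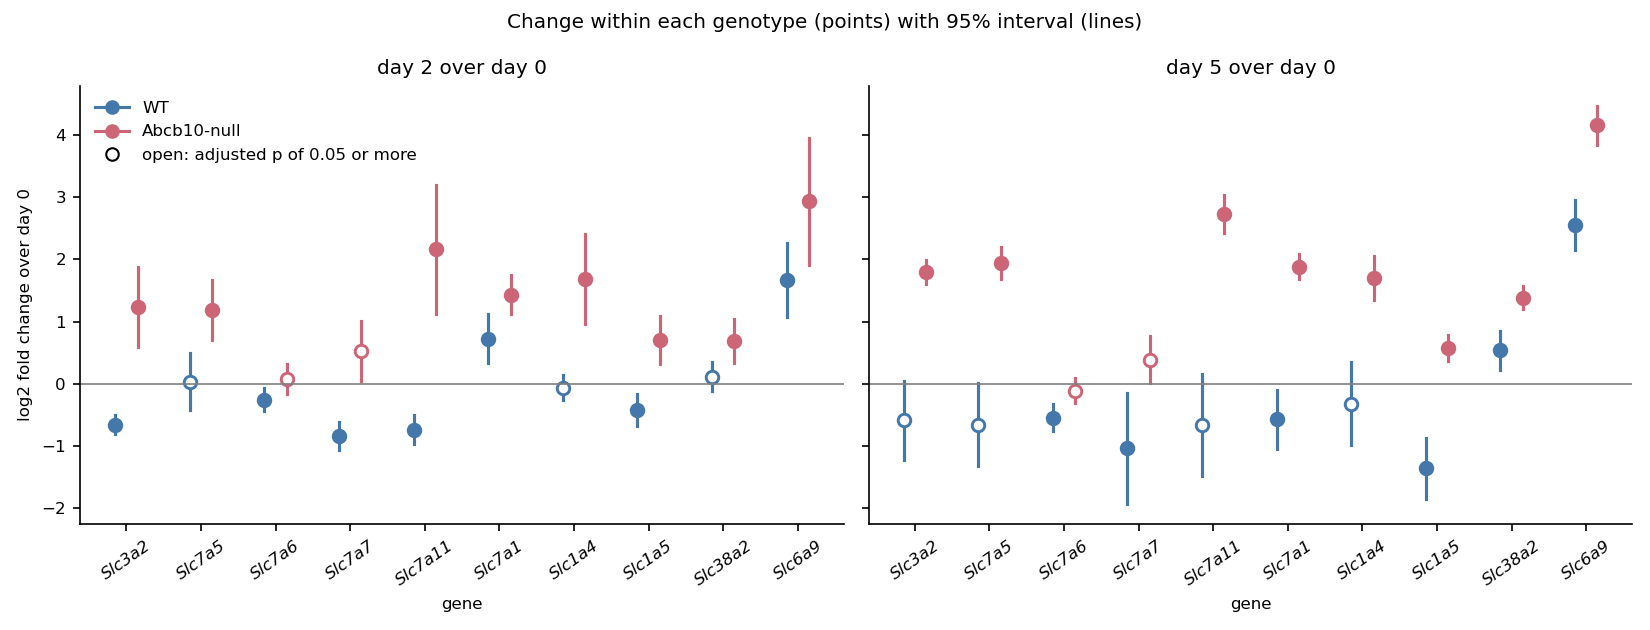
Log2 fold change of each transporter at day 2 (left) and day 5 (right) over day 0 within WT (blue) and Abcb10-null cells (red), with lines for the 95% interval and open circles where the adjusted p was 0.05 or more. At day 5 the red point lies above the blue one for all 10 genes, and *Slc6a9* is highest in both genotypes, at 2.54 and 4.15.

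The change from day 0 was tested between genotypes with an interaction term over the 20 libraries of the 4 groups. From day 0 to day 2 the change was higher in Abcb10-null cells for 7 of 10 members, beside 12% of all genes, largest for *Slc7a11* (log2 difference of changes 2.87, SE 0.53, edgeR adjusted p = 0.00109) and *Slc3a2* (log2 difference of changes 1.86, SE 0.33, edgeR adjusted p = 0.000838). The smallest call, that of *Slc7a1* (log2 difference of changes 0.68, SE 0.24, edgeR adjusted p = 0.0444), passed in 5 of 20 refits with 1 library removed. That of *Slc7a5* was lost without Abcb10-null day 2 replicate 3 (0.86, edgeR adjusted p = 0.056). *Slc7a6*, *Slc38a2* and *Slc6a9* were not called, and without both low libraries of Abcb10-null day 2 all 10 were, beside 39.6% of all genes called in either direction. From day 0 to day 5 the change was higher for all 10 members, beside 16.8% of all genes. The call of *Slc7a6* (edgeR adjusted p = 0.018) passed in 20 of 20 refits with 1 library removed but in 5 of 6 other settings. The differences of changes at day 5 ran from 0.44 for *Slc7a6* to 3.40 for *Slc7a11*, with a median of 1.98 over the members against -0.01 over all genes tested. *Slc7a5* (log2 difference of changes 2.6, SE 0.35, edgeR adjusted p = 6.85e-06) and *Slc7a1* (log2 difference of changes 2.46, SE 0.25, edgeR adjusted p = 1.85e-07) followed *Slc7a11* (log2 difference of changes 3.40, SE 0.44, edgeR adjusted p = 3.38e-06). The call of *Slc7a7* (log2 difference of changes 1.43, SE 0.48, edgeR adjusted p = 0.0249) was lost without WT day 5 replicate 4 or Abcb10-null day 5 replicate 3 (edgeR adjusted p = 0.0509 and 0.0605). Without WT day 5 replicate 5 the value was 2.25 (edgeR adjusted p = 2.62e-07).

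In order of level per kilobase, *Slc3a2* (73.7 ± 1.48 CPM per kb), *Slc38a2* (47.4 ± 5.43) and *Slc1a5* (24.6 ± 1.69) led in WT cells at day 0, each apart from the next in all libraries. *Slc1a4*, *Slc7a7*, *Slc7a5* and *Slc7a6* followed between 9.48 and 11.96, neighbours that overlapped, and below them *Slc7a1*, *Slc7a11* and *Slc6a9* (1.53 ± 0.110) were apart from one another. *Slc3a2* and *Slc38a2* held the first 2 ranks in all 6 groups, with overlapping libraries in 4 of them. In Abcb10-null cells at day 5 they stood at 196 ± 24.9 and 142 ± 8.10 CPM per kb, apart, ahead of *Slc1a4* (39.8 ± 12.1), *Slc1a5* (25.2 ± 2.78), *Slc7a11* (22.5 ± 4.95) and *Slc7a5* (22.5 ± 4.34), of which neighbours overlapped. *Slc7a11* moved from rank 9 of 10 in both genotypes at day 0 to rank 5 in Abcb10-null cells and rank 10 in WT cells at day 5. *Slc6a9* moved from rank 10 at day 0 to rank 5 in WT and rank 7 in Abcb10-null cells at day 5. *Slc7a6* was last in Abcb10-null cells at day 5 (8.35 ± 0.71).

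The pattern of levels over the 6 groups was most alike among the members for *Slc7a7* and *Slc1a5* (root mean square difference of centred group mean log2 CPM 0.21), *Slc7a1* and *Slc7a5* (0.25) and *Slc3a2* and *Slc1a4* (0.26), and *Slc6a9* was farthest from all others (1.04 or more). Among 12152 genes with a mean of at least 1 CPM, those nearest to *Slc7a1* that are no members were *Adm2*, a peptide hormone gene (0.12), *Slc38a7*, a lysosomal glutamine carrier (0.20), and *Coro2a* (0.29). Nearest to *Slc7a11* were *Aldh1l2*, a mitochondrial enzyme of folate metabolism (0.16), the nucleotide sugar receptor *P2ry14* (0.20) and *Angptl6* (0.24). Nearest to *Slc6a9* were *Ppp1r15a*, which directs a phosphatase to eIF2α (0.17), *Amy1* (0.29) and *Gm11613* (0.32).

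Other amino acid transporters, 59 genes, were counted in the same fits. Like the members, they were listed with earlier results of these data known, so the contrast between them is not free of selection. At day 5, of 35 other carriers of the plasma membrane 10 were expressed enough to test, and 5 were lower and none higher in Abcb10-null cells. Of 12 lysosomal and vesicular carriers 7 were tested, with 2 higher and none lower, and of 12 mitochondrial carriers 11 were tested, with 1 higher and 3 lower. Over all genes 19.8% were called higher and 17.8% lower at that day. The median log2 differences of the 3 lists were -0.49, 0.02 and -0.23, against 1.57 for the members. At day 2 the plasma membrane list had 4 lower and none higher of 10 tested. The lysosomal list had 2 higher and 1 lower of 7, and the mitochondrial list 1 higher and 2 lower of 10. Over all genes 14.9% were called higher and 16.9% lower at day 2. At day 0 the plasma membrane list had 1 lower and none higher of 7. The lysosomal list had 2 higher and none lower of 7, and the mitochondrial list 2 higher and 1 lower of 10. Over all genes 19.7% were called higher and 16.2% lower at day 0. The largest rises at day 5 were those of *Slc38a7* (4.19 ± 0.974 against 1.51 ± 0.634 CPM in WT, log2 difference 1.44, SE 0.34, edgeR adjusted p = 0.00499), the mitochondrial aspartate/glutamate carrier *Slc25a13* (log2 difference 0.77, SE 0.11, edgeR adjusted p = 0.000193) and *Slc17a5* (log2 difference 0.54, SE 0.12, edgeR adjusted p = 0.00416). The largest falls were those of the glutamine carrier *Slc38a5* (55.2 ± 10.4 against 138 ± 12.6 CPM in WT, log2 difference -1.34, SE 0.14, edgeR adjusted p = 1.86e-05), *Slc43a2* (4.25 ± 1.37 against 10.1 ± 5.24 CPM in WT, log2 difference -1.27, SE 0.34, edgeR adjusted p = 0.0106) and *Slc25a29* (log2 difference -1.24, SE 0.37, edgeR adjusted p = 0.0183), a carrier of basic amino acids. *Slc25a29* was low in both genotypes, at 0.784 ± 0.175 CPM against 1.84 ± 0.587 CPM in WT.

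*Slc25a38*, which brings glycine into mitochondria for heme synthesis, was lower in Abcb10-null cells at day 0 (log2 difference -0.43, SE 0.07, edgeR adjusted p = 0.000181) and day 5 (log2 difference -0.74, SE 0.21, edgeR adjusted p = 0.0144). *Slc6a9* was lower and higher on these days. *Slc25a15*, the ornithine and citrulline carrier of mitochondria, was not called at day 0, 2 or 5 (day 5 log2 difference -0.07, SE 0.15, edgeR adjusted p = 0.723). The lysosomal arginine sensor *Slc38a9* was higher at day 0 (log2 difference 0.33, SE 0.11, edgeR adjusted p = 0.029) and not called at day 5 (log2 difference -0.46, SE 0.17, edgeR adjusted p = 0.0517), and the lysosomal cationic amino acid exporter *Slc66a1* was not called on any day (day 5 log2 difference 0.02, SE 0.19, edgeR adjusted p = 0.951).

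Of 8 transcription regulators listed with the transporters, 3 were lower and none higher in Abcb10-null cells at day 0 (16.2% of all genes lower). At day 2, 5 were higher and none lower (14.9% of all genes higher), and at day 5, 6 were higher and 1 lower (19.8% and 17.8% of all genes). *Atf4*, the activator of genes for amino acid supply, held 476, 459.9, 470, 449 and 456 CPM in WT libraries and 328, 312, 347, 355 and 326 CPM in Abcb10-null libraries at day 0 (log2 difference -0.48, SE 0.05, edgeR adjusted p = 1.44e-06). It was lower in every Abcb10-null library, as was *Slc3a2*. On day 2 it held 213, 198, 230.3, 291 and 233 CPM in WT libraries and 581, 193, 611, 644 and 389.98 CPM in Abcb10-null libraries (log2 difference 1.00, SE 0.26, edgeR adjusted p = 0.012). By day 5 the values were 189, 135, 166, 181 and 416 CPM and 585, 488, 547, 622 and 699.9 CPM (log2 difference 1.43, SE 0.25, edgeR adjusted p = 0.000752), without overlap. The libraries that stood apart for the transporters stood apart here in the same direction, Abcb10-null replicates 2 and 5 at day 2 and WT replicate 5 at day 5. *Ddit3*, which encodes CHOP, split in the same way, at 504, 29.3, 497, 515 and 219 CPM in Abcb10-null cells at day 2 (log2 difference 2.75, SE 0.53, edgeR adjusted p = 0.00421) and 69.3, 54.7, 66.3, 72.6 and 321 CPM in WT cells at day 5 (log2 difference 1.77, SE 0.43, edgeR adjusted p = 0.00604). The genotypes overlapped for *Ddit3* on both days. WT libraries held 43.8 to 61.4 CPM at day 2, and Abcb10-null libraries held 298 to 518 CPM at day 5. *Nfe2l2*, the activator of antioxidant genes, and *Myc* did not follow the pattern of libraries that stood apart, with *Myc* at 59.6, 69.8, 60.01, 48.2 and 55.2 CPM in Abcb10-null libraries at day 2. *Nfe2l2* was lower in Abcb10-null cells at day 5 (log2 difference -0.71, SE 0.12, edgeR adjusted p = 0.000807) and *Myc* higher (log2 difference 0.84, SE 0.13, edgeR adjusted p = 0.000307). What part the regulators, the erythroid marker sums or these libraries had in the transporter levels was not tested.

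**Figure D5:**
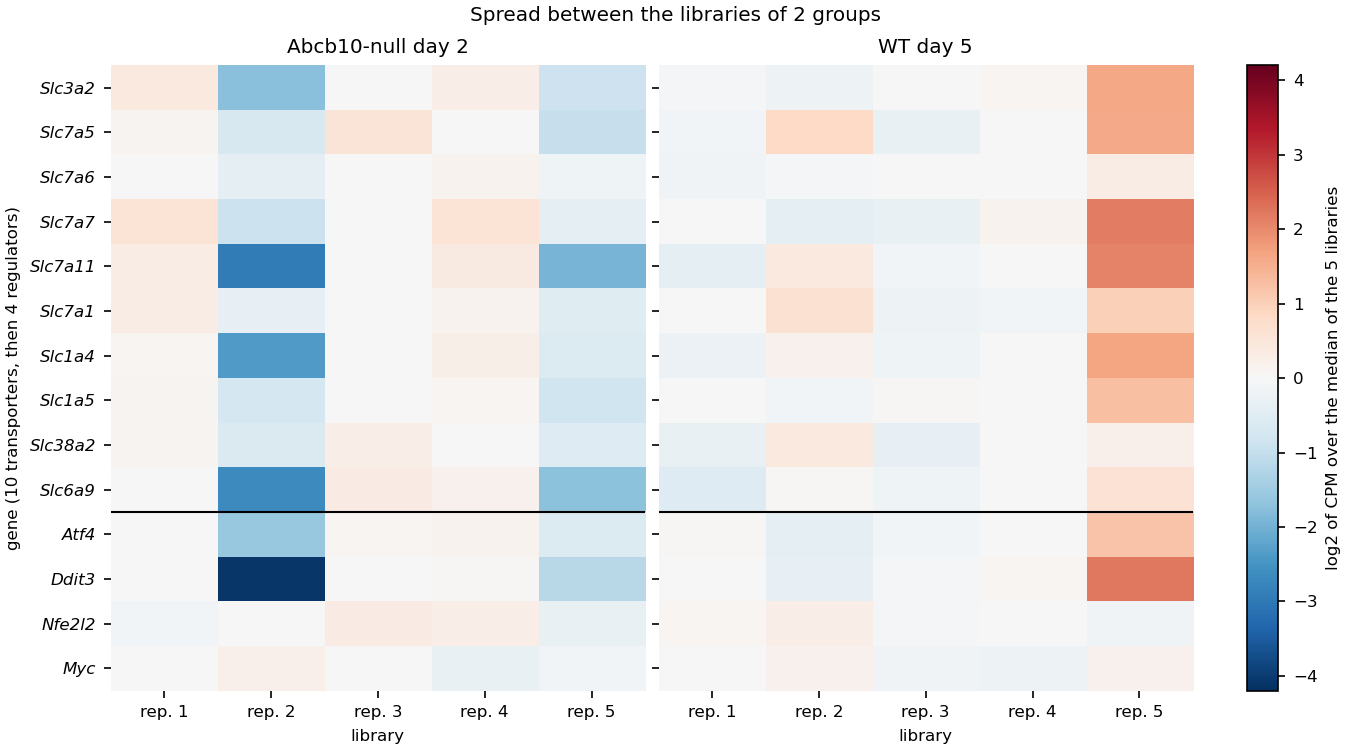
Log2 of the CPM of each gene over the median of its 5 libraries, for the libraries of Abcb10-null day 2 (left) and WT day 5 (right), with the 10 transporters above the line and 4 regulators below it. Abcb10-null replicates 2 and 5 are below (blue) and WT replicate 5 above (red) for the transporters, *Atf4* and *Ddit3*, as for *Slc7a11* at 34.8 and 67.8 against 264 to 345 CPM and at 80.5 against 14.6 to 25.7 CPM.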

How the data were processed

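RNA was sequenced from 30 libraries of WT and Abcb10-null MEL cells, 5 for each genotype and day. The deposited values are raw counts per gene, which the authors made by trimming adapters, aligning read pairs to mouse GRCm38 with STAR 2.6.1b and counting with featureCounts 1.6.3. The library kit keeps strand, but the strand setting of the counting was not given in the sources used here, so genes that overlap on opposite strands may share reads. From these counts, TMM-scaled CPM (per 1000000) and edgeR 4.0.16 quasi-likelihood tests (R 4.3.3) were computed on all genes that passed filterByExpr, with only the libraries compared, and p-values were adjusted by Benjamini-Hochberg in each of 11 comparisons (threshold 0.05). Standard errors were derived from the F statistic. CPM per kb used union exon lengths of the GENCODE annotation of GRCm38. The scripts were tested on simulated counts. The alternatives were DESeq2 1.42.0, its size factors in edgeR, genes with at least 1 count or at least 10 counts in every library, one fit of all 30 libraries, a replicate block and each library left out. The members and gene lists were chosen with earlier results of these data known. Named besides the members were *Abcb10*, *Atf4*, *Ddit3*, *Nfe2l2* and *Myc*, *Slc25a38*, *Slc25a15*, *Slc38a9* and *Slc66a1*, the 3 largest rises and falls at day 5 among the other transporters with a mean of at least 1 CPM, and the 3 genes nearest in pattern to *Slc7a1*, *Slc7a11* and *Slc6a9*.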

Additional observations from a re-analysis of the deposited data

Results flagged for a closer look

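In 9 of 60 groups of 5 libraries, 1 library lay far from the other 4 (a gap to the nearest of more than 0.71 of the range), which chance gives in about 1 of 20 groups. Of these, 5 were WT day 5 replicate 5, the highest of its group for *Slc3a2* (385 CPM), *Slc1a4* (85 CPM), *Slc7a11* (80.5 CPM), *Slc1a5* (74.9 CPM) and *Slc7a7* (47.2 CPM). The others were *Slc3a2* in WT day 2 replicate 4 (184 CPM, the highest), *Slc7a5* in Abcb10-null day 5 replicate 5 (111 CPM, the highest), *Slc7a1* in Abcb10-null day 5 replicate 4 (118 CPM, the lowest) and *Slc7a5* in Abcb10-null day 0 replicate 3 (18.8 CPM, the lowest).

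The change from day 0 differed between genotypes in edgeR's interaction test in 17 cases, each given as the log2 change in Abcb10-null cells minus that in WT cells. From day 0 to day 2 it was 2.87 for *Slc7a11*, 1.86 for *Slc3a2*, 1.72 for *Slc1a4*, 1.34 for *Slc7a7*, 1.13 for *Slc7a5*, 1.10 for *Slc1a5* and 0.68 for *Slc7a1*. From day 0 to day 5 it was 3.40 for *Slc7a11*, 2.6 for *Slc7a5*, 2.46 for *Slc7a1*, 2.39 for *Slc3a2*, 2.02 for *Slc1a4*, 1.94 for *Slc1a5*, 1.61 for *Slc6a9*, 1.43 for *Slc7a7*, 0.85 for *Slc38a2* and 0.44 for *Slc7a6*. The interaction tests of the 2 days share the day 0 libraries.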

How the results depend on the processing

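Of 1300 results with 1 library left out, 1196 kept their direction and side of the threshold, 63 lost a call, 22 gained one and 19 turned direction. DESeq2 kept 105 of 107, its size factors in edgeR 109 of 110, the stricter count filter 106 of 110, the fit of all 30 libraries 96 of 110 and testing all genes with at least 1 count 90 of 110. DESeq2 gave no result to compare for *Slc7a11* and *Slc7a7* in WT cells from day 0 to day 5 and *Slc7a7* from day 2 to day 5. These comparisons hold WT day 5 replicate 5. The number of members called between genotypes at day 0 was 1 in the fit of all 30 libraries, beside 10.8% of all genes. With all genes of at least 1 count, 10 were called in WT cells between days 5 and 0, beside 31.7% of all genes. With 1 library left out, the number called ran from 4 to 10 for WT day 5 against day 0 and from 2 to 8 for WT day 5 against day 2, both highest without WT day 5 replicate 5, and from 1 to 4 for Abcb10-null day 5 against day 2. The turned directions were of small log2 values that were not called, other than *Slc7a11* and *Slc3a2* below. With 1 library left out, *Slc7a1* between genotypes at day 2 ran from -0.19 to 0.044 (0.13 without both low Abcb10-null libraries), and in WT cells from day 0 to day 2 *Slc7a5* ran from -0.050 to 0.25 and *Slc1a4* from -0.12 to 0.026. In WT cells from day 2 to day 5 *Slc7a11* ran from -0.62 to 0.26 and *Slc3a2* from -0.43 to 0.21, both lowest and called without WT day 5 replicate 5. In Abcb10-null cells from day 2 to day 5 *Slc7a7* ran from -0.31 to 0.037 and *Slc1a4* from -0.22 to 0.20 (-0.018 with all genes of at least 1 count, -0.36 without both low libraries). Apart from the left-out libraries, the cause of these changes was not tested. Libraries of different groups with the same replicate number made 75 pairs. The deviations of the 2 libraries of a pair correlated at -0.26 to 0.43 (median -0.014). As 8 of the 75 pairs were over 0.1, no general pairing by replicate number was seen, although single pairs reached up to 0.43. The replicate block kept 100 of 110 results. It lost *Slc38a2* in WT cells (edgeR adjusted p = 0.0511) and *Slc7a1* in Abcb10-null cells (0.0563), both from day 2 to day 5. It gained *Slc7a7* between genotypes at day 5 (0.02), *Slc7a5* (0.00427), *Slc7a11* (0.0217) and *Slc3a2* (0.0116) in WT cells from day 0 to day 5 and *Slc7a5* in WT cells from day 2 to day 5 (0.0284). It turned *Slc7a5* in WT cells from day 0 to day 2 (-0.018) and *Slc7a11* (-0.26) and *Slc3a2* (-0.13) in WT cells from day 2 to day 5. The members had 66 counts or more in every library, and what part depth had in the calls was not tested.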
